A study of Mus musculus with 75 samples.

Results

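The major urinary protein (Mup) family comprised every gene in the count table whose symbol begins with Mup followed by a digit or by -ps, which gave 49 of 55536 genes. Of these, 22 are annotated as protein-coding and 27 as pseudogenes. All but 1 lie in a single cluster on chromosome 4 of the mouse assembly GRCm38, from Mup4 (start 59956804) to Mup21 (end 62150863). The exception is the pseudogene Mup-ps22 on chromosome 11 (55123695 to 55123937). The rule for members used symbols alone and no measured value, but it was set with earlier results of these data known.

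Bulk RNA sequencing was done on livers of C57Bl/6 mice, all labelled male, whose dams drank water with the organotin tributyltin (TBT) until weaning, or vehicle. The TBT dose was 0.5 mg/kg each day, given as a drinking water concentration of 3.07 µM. Samples compared were 7 vehicle and 8 TBT livers of 3 weeks, 8 vehicle, 16 low-risk and 10 high-risk livers of 5 months, and 6 vehicle, 5 low-risk, 5 uninvolved high-risk and 7 tumor samples of 10 months. Low-risk and high-risk are the submitters' labels for TBT-exposed mice and refer to liver tumor development; the basis of these labels at 5 months, before tumors were taken, is not given. If they were assigned from expression, the 5-month comparison of high-risk with low-risk livers would be fixed in part by that choice, so it describes the labelled groups. By sequencing batch, 10 low-risk livers, 7 high-risk livers and 1 vehicle of 5 months were in batch 2, and every other library in batch 1. Nothing in the labels says that exposed mice of a group came from separate litters, so p-values measure the spread between these samples.

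Major urinary proteins are small secreted lipocalins, barrel-shaped carriers of hydrophobic ligands. In mice the liver makes them in large amounts, and the kidney passes them into urine, where they bind volatile pheromones and act as scent signals themselves. Adult males make more than females, under the pulsatile secretion of growth hormone, which acts through the growth hormone receptor and STAT5B in hepatocytes. Mup20 encodes darcin, the male pheromone that attracts females, while Mup4 and Mup5 are known from nasal, lacrimal or salivary glands rather than from liver.

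The coding members fell into 2 kinds by sequence. In 16 of them (Mup1, Mup2, Mup7 to Mup19 and Mup22) the coding sequences were 98.3 to 99.8% identical in all 120 pairs. The other 6 (Mup3, Mup4, Mup5, Mup6, Mup20 and Mup21) were 83.5 to 91.3% identical to those 16, and 84.0 to 95.4% identical to one another, with Mup3 and Mup21 the closest pair. Among windows of 100 bases of the annotated exons, 97.8% of those in Mup3 and 95.5% of those in Mup21 occur in no other member. The share was 61.2% for Mup20, 23.9% for Mup7, 2.66% for Mup15 and 0 for Mup19 and Mup22. Counts of a single near-identical member are therefore uncertain, since it is not given how reads that match several genes were treated, and the sum over members carries the comparison for that kind. Members that may share reads are not independent outcomes. The numbers of members called below, also beside shares of all genes, are descriptions of the family. Among coding sequences Mup20 was closest to Mup5 (91.5%), and among coding members Mup20 was the one closest to the pseudogenes Mup-ps19 (94.8% of the pseudogene transcript) and Mup-ps22 (90.1%).

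RefSeq promoter sequences (GRCm38.p6, 250 bases before to 50 after the transcription start) were at hand for 14 of the 22 coding members. Mup1, Mup5, Mup8, Mup12, Mup13, Mup16, Mup20 and Mup22 had no entry. Both strands were searched for ATCAAT, the core recognised by Onecut and Cux homeodomain factors, which are known to act on sex-biased liver genes. All 14 promoters held it 2 times, against 7.418% of all 32544 RefSeq promoters of this length that held it at all. TTCNNNGAA, the STAT5-type palindrome, was in 0 of the 14 (8.327% of all promoters), and TATAAA was in 2 of them, Mup4 and Mup6 (13.569% of all). The stretch that spans both ATCAAT copies is printed below for 4 members that the results turn on, with ATCAAT in capitals and 10 flanking bases on each side. It shows what the promoters share although the longest string common to all 14 whole promoters was 9 bases. Each is given 5′ to 3′ on the gene's strand, which is minus.
Mup3, chr4:62087402-62087489: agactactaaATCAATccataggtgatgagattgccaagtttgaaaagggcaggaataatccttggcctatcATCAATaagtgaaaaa
Mup21, chr4:62150920-62151007: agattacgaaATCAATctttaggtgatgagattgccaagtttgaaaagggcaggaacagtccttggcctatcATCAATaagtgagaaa
Mup7, chr4:60070479-60070567: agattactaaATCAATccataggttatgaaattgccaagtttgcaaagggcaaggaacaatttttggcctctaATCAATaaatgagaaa
Mup17, chr4:61595965-61596053: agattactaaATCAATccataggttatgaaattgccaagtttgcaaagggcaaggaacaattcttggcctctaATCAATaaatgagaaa
The 2 copies were 56 bases apart in Mup3, Mup4, Mup6 and Mup21, and 57 bases apart in the other 10. The segment of Mup17 was letter for letter the same in Mup2, Mup9, Mup11, Mup15, Mup18 and Mup19. A match of letters is a description of sequence and not a measured binding site, and a missing match says only that these letters are not in this window.

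Total counts were 2.83 to 45.4 M (mega) per library over 75 libraries, and levels are given as CPM, counts per M counts. Of these libraries, 6 deviated technically (under 5 M counts, more than 35000 detected genes or a mitochondrial share above 10%). They were a library of 3-week vehicle 3, the 10-month vehicle library labelled as a tumor, and vehicle 9, low-risk liver 16 and high-risk livers 10 and 15 of 5 months. Besides, 1 library labelled male at 3 weeks, TBT 4, had an Xist level of 348 CPM, with few Y-linked counts. Xist was at 84.6 CPM in low-risk liver 24 of 5 months, where the Y-linked sum was 237 CPM, and at most 8.39 CPM in each remaining library. Liver 24 had Mup20 at 13545 CPM, and it also had the highest family sum (33934 CPM). Without it the sum of high-risk against low-risk livers differed by -3.12, with 22 members called. Without the deviating libraries or TBT 4 the counts of called members given below stayed within 1.5 times of the values printed, except where another value is given. A pair of libraries of the same 3-week vehicle mouse was summed, as was the pair of uninvolved libraries 3 and 6. Their median gene differed by 0.0433 on the log2 scale, against 0.0923 for the next closest pair within a group. A vehicle library of 10 months labelled as a tumor entered no comparison.

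The liver changed its Mup output with age. The family sum was 163 to 949 CPM in 3-week vehicles (median 694), 2980 to 21827 CPM in 5-month vehicles (median 15002) and 16485 to 22450 CPM in 10-month vehicles (median 21343). These medians were 0.0694, 1.5 and 2.13% of all counts. Every 5-month vehicle lay above every 3-week vehicle, whereas 5 and 10 months overlapped. Vehicles 4 and 6 of 5 months were the low ones of their age, at 7395 and 2980 CPM, against 14151 CPM or more in the other 6. Between the vehicles of batch 1 the mean of log2(CPM + 1) of the sum was 4.502 higher at 5 months than at 3 weeks, a 22.7-fold difference of geometric means, and differed by 0.71 from 5 to 10 months. The sum itself was not tested.

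At 3 weeks the family was largely Mup3. It supplied 82.1% of the family's mean count in vehicles and Mup20 12.4%, and per kilobase of exon Mup3 stood at 469 CPM and Mup20 at 81.5 CPM. The near-identical members together had a median of 15.4 CPM at 3 weeks and of 6155 CPM at 5 months. By 10 months the shares in vehicles were 40.5% for Mup3, 21.1% for Mup7, 13.7% for Mup20 and 7.17% for Mup17. Per kilobase the order of mean levels at 10 months was Mup3 (7672 CPM), Mup7 (4128), Mup20 (2993), Mup17 (1564) and Mup21 (738). Over the 6 vehicles Mup3 ran from 7276 to 8206 CPM per kilobase and overlapped no other member. Mup7 (3075 to 4817) overlapped Mup20 (2151 to 4061), and Mup20 overlapped Mup17 (869 to 2167), so the order of these neighbours is within their spread. The order and the shares also depend on how reads that match several members were treated, which is not given. Windows of 100 bases found in no other member made up 97.8% of Mup3 but 23.9% of Mup7.

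Of 28 members tested between 5-month and 3-week vehicles, 27 rose at adjusted p under 0.05 (edgeR quasi-likelihood test, Benjamini-Hochberg over all genes), against 12.5% of all genes tested that rose. In 20 the groups did not overlap, against 1.17% of all genes. The median member changed by 7.06 on the log2 scale and the median gene by 0.03. Mup3 rose least among the called coding members, by 3.67 on the log2 scale (SE 0.44, adjusted p 2.33e-06 by edgeR), from 99.5, 549 and 799 CPM (lowest, median and highest) to 1218, 6263 and 8487 CPM in all 8 vehicles of 5 months. Mup20 rose by 5.05 (SE 0.26, adjusted p 9.36e-12), Mup21 by 6.62 (SE 0.56, adjusted p 4.11e-08) and Mup7 by 9.79 (SE 1.14, adjusted p 2.96e-06). As ratios of pooled CPM these were 11.8-fold for Mup3, 28.6-fold for Mup20, 87.8-fold for Mup21 and 811-fold for Mup7. Mup1 had no count in any 3-week vehicle and 48.3 pooled CPM at 5 months, so it was at least 1830-fold higher, taking 3 counts over the group as the floor. Mup2 was the member not called (log2 fold change 1.26, adjusted p 0.0601), and it had been at 1.49 to 3.62 CPM already at 3 weeks. From 5 to 10 months 0 of 28 members were called by edgeR, against 13.8% of all genes in either direction, and 1 had an unadjusted p under 0.05. With the replicate number as a block it was 1 member (Mup-ps19, 0.75, adjusted p 0.0304), and without the technically deviating libraries also 1 (Mup-ps16, 1.41, adjusted p 0.0229).

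**Figure D1:**
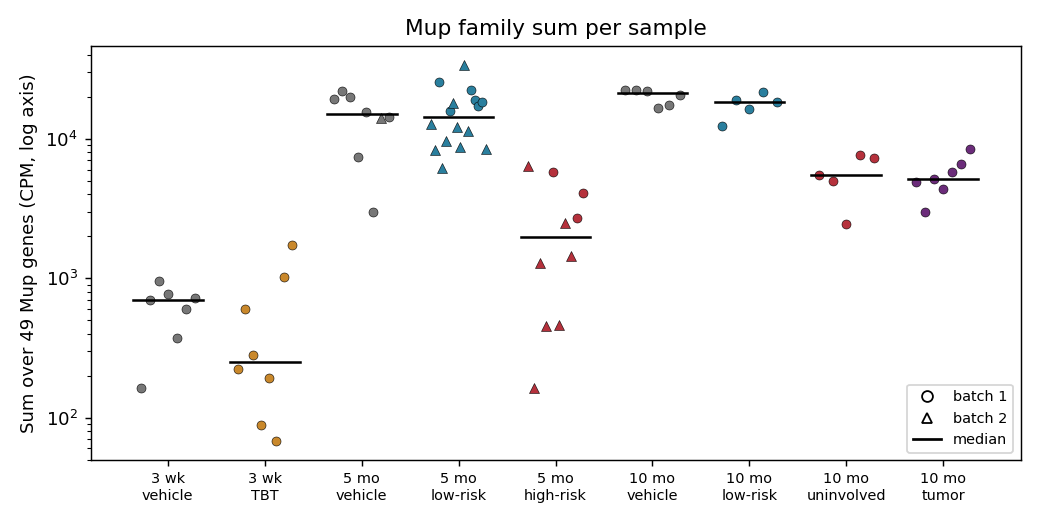
Summed CPM of the 49 Mup genes per sample on a log axis, by age and group, with circles for batch 1, triangles for batch 2 and bars at the group medians. The 3-week samples sit at or below 1741 CPM, and the medians of the adult groups are 15002, 14211 and 1969 CPM at 5 months (vehicle, low-risk, high-risk) and 21343, 18445, 5450 and 5151 CPM at 10 months (vehicle, low-risk, uninvolved, tumor).

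Whether maternal TBT altered the family at weaning was asked at 3 weeks. The sum was 67.9 to 1741 CPM in 8 TBT livers (median 251) and 163 to 949 CPM in 7 vehicles (median 694), so the TBT range enclosed that of the vehicles. Mean log2(CPM + 1) differed by -0.82, and by -0.56 without the library TBT 4 (87.8 CPM). Of 9 members tested 0 were called, as were 0% of all genes, and 0 of the 9 had an unadjusted p under 0.05 (DESeq2 also called 0). Mup3 was at 38.0, 177 and 1493 CPM in TBT livers, with a log2 fold change of -0.09 (SE 0.78). Mup20 was at 16.5, 53.6 and 92.2 CPM against 49.7, 75.2 and 121 CPM in vehicles, with a log2 fold change of -0.35 (95% interval -0.99 to 0.29). For Mup3 the interval ran from -1.63 to 1.44, so differences within these bounds were not excluded at this depth and number of samples.

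In TBT-exposed mice of 5 months that were labelled low-risk, the family sum overlapped that of the vehicles. The sum was 6163, 14211 and 33934 CPM (lowest, median, highest) in 16 low-risk livers, and mean log2(CPM + 1) differed by 0.16 from the 8 vehicles. Of 27 members 0 were called between these groups by edgeR, as were 0% of all genes, and 0 of the 27 had an unadjusted p under 0.05. At 10 months the sum in low-risk livers 2, 4, 8, 9 and 10 was 18974, 16416, 21618, 18445 and 12250 CPM, of which 2 were below all 6 vehicles. There too 0 of 30 members were called, as were 0% of all genes, with 3 at an unadjusted p under 0.05. Those were Mup21 (-0.66), Mup2 (2.02) and Mup-ps20 (-1.02). The Mup2 value rests on low-risk liver 8, at 125 CPM against 6.36 to 9.53 CPM in the other 4.

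High-risk livers of 5 months had far less Mup RNA than low-risk livers of the same exposure. Their sum was 163, 1969 and 6414 CPM, and 9 of the 10 lay below all 16 low-risk livers. The exception, high-risk liver 1 at 6414 CPM, exceeded the lowest low-risk liver at 6163 CPM. Lowest was high-risk liver 10 at 163 CPM, a technically deviating library with 39669 detected genes. The same library gave the lowest high-risk values of Mup3, Mup7, Mup20 and Mup21 printed below. Mean log2(CPM + 1) was 10.57 ± 1.75 (SD, n = 10) against 13.77 ± 0.67 (n = 16), a difference of -3.20 or 9.20-fold. Within batch 1 the difference was -2.28 (2711, 4059 and 5773 CPM in 3 high-risk livers against 15699 to 25374 CPM in 6 low-risk livers), and within batch 2 it was -3.52 (7 against 10). The summed near-identical members had a median of 133 CPM against 5435 CPM in low-risk livers, and the summed divergent members 1478 against 7723 CPM. In high-risk livers 10, 12, 13, 17 and 25, all of batch 2, the near-identical sum was 5.74 to 23.8 CPM. It was 241.7 CPM or more in the other high-risk livers, so no liver lay close to that median. The part that a batch adjustment of the deposited counts has in this split was not tested.

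Of 27 members tested between high-risk and low-risk livers at 5 months, 24 fell and 0 rose (edgeR adjusted p under 0.05), against 18.3% of all genes that fell. The median member changed by -2.69 and the median gene by -0.01. The 3 not called were Mup18 (adjusted p 0.0695), Mup-ps19 (0.0592) and Mup-ps16 (0.0581), each lower in its estimate. In batch 1 alone 20 of 30 members were called, and in batch 2 alone 10 of 24.

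Mup21 and Mup3, the divergent pair at the end of the cluster, separated the 5-month groups without overlap, as did Mup-ps20, against 0.203% of all genes that were lower without overlap. Mup21 (ENSMUSG00000066153, chromosome 4, 62147932 to 62150863, minus strand) ran at 2.31, 11.3 and 67.0 CPM in the 10 high-risk livers and at 122, 389 and 844 CPM in the 16 low-risk livers. Its log2 fold change was -4.48 (SE 0.51, adjusted p 1.3e-07 by edgeR), and it was -3.28 in batch 1 alone and -5.31 in batch 2 alone. Mup3 (ENSMUSG00000066154, chromosome 4, 62083476 to 62087342, minus strand) ran at 74.4, 624 and 1694 CPM in the first group and at 4381, 5206 and 8854 CPM in the second. It fell by 3.35 on the log2 scale (SE 0.44, edgeR adjusted p 5.23e-07), by 3.02 in batch 1 and by 3.54 in batch 2.

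The near-identical members fell over a wider range. Mup7 (ENSMUSG00000073842, chromosome 4, 60066469 to 60070475, minus strand) had 0.128, 30.9 and 1133 CPM in high-risk livers and 632, 2558 and 5143 CPM in low-risk livers. The overlap came from high-risk liver 1 alone, since the other 9 lay at or below 172 CPM. High-risk livers 10, 12, 13, 17 and 25, all of batch 2, had only 0.128 to 1.21 CPM of Mup7. At their total counts of 7.79 to 14.1 M, the lowest of these values lie near the floor of counting. The name of the deposited file gives a batch adjustment of counts, and its part in these values was not tested. Livers 4, 9, 15 and 22 had 60.6 to 172 CPM, so the median of 30.9 CPM falls in a gap that holds no liver. Its log2 fold change was -4.13 (SE 1.08, adjusted p 0.00299 by edgeR), -5.73 in batch 1 alone and -3.55 in batch 2 alone, where it was not called (adjusted p 0.104). Mup17 behaved alike, at 2.55, 35.7 and 1193 CPM against 209, 991 and 3087 CPM, with a log2 fold change of -2.94 (SE 0.88, adjusted p 0.00875). It was not called in batch 2 alone (-2.48, adjusted p 0.167). Mup11 fell by 4.401 (SE 1.08, adjusted p 0.00161), Mup16 by 4.74 (SE 0.84, adjusted p 4.56e-05) and Mup10 by 1.72 (SE 0.64, adjusted p 0.033). Mup15 had the largest estimate (-5.96, SE 1.35, adjusted p 0.000785), at 0, 0.192 and 15.3 CPM against 1.02, 24.1 and 1070 CPM. Few of its windows are unique, and the part that reads shared with its neighbours play in this value was not tested.

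Mup20 (ENSMUSG00000078672, chromosome 4, 62050234 to 62054158, minus strand) differed less between the 5-month groups than Mup3, Mup7 and Mup21. Mup10 had a smaller estimate still (-1.72), so a smaller fall was not particular to Mup20 at this age. High-risk values were 67.9, 809 and 3102 CPM and low-risk values 275, 1901 and 13545 CPM, which overlap over most of their range. Its log2 fold change was -1.90 (SE 0.54, adjusted p 0.00532 by edgeR), and -1.30 (adjusted p 0.00513) without low-risk liver 24, the sample at 13545 CPM. In batch 1 alone it was -0.47 (adjusted p 0.476), with 1195, 2360 and 3102 CPM in high-risk against 1739 to 4394 CPM in low-risk livers. In batch 2 alone it was -2.78 (adjusted p 0.0148), with 67.9 to 1064 CPM against 275 to 13545 CPM. Mup2 fell less there (-2.41, adjusted p 0.0245 by edgeR). Of these extremes, 67.9 CPM (high-risk liver 10), 3102 CPM (high-risk liver 15) and 4394 CPM (low-risk liver 16) came from technically deviating libraries.

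Against the 8 vehicles of 5 months, 15 of 27 members fell in high-risk livers and 0 rose (edgeR), against 7.2% of all genes that fell. The sum differed by -3.04, or 8.23-fold, and 7 of 10 high-risk livers lay below every vehicle. Batch 2 held 7 of these high-risk livers but 1 vehicle, and in batch 1 alone the sum differed by -1.62, with 1 of 3 high-risk livers below all 7 vehicles. The mean of the within-batch differences was -2.72. Mup21 fell by 4.05 (SE 0.53, adjusted p 5.77e-05), Mup3 by 3.03 (SE 0.48, adjusted p 0.000211) and Mup7 by 4.12 (SE 1.24, adjusted p 0.022). Mup20 was not called (-1.25, adjusted p 0.145). The count rested on the design: it was 24 without high-risk liver 1, 8 in a fit of these groups alone and 0 in batch 1 alone (7 against 3), where the adjusted p of Mup3 was 0.0614. With the replicate number as a block over 3 pairs neither Mup3 (-2.14, adjusted p 0.967) nor Mup21 (-2.03, adjusted p 0.0674) was called.

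**Figure D2:**
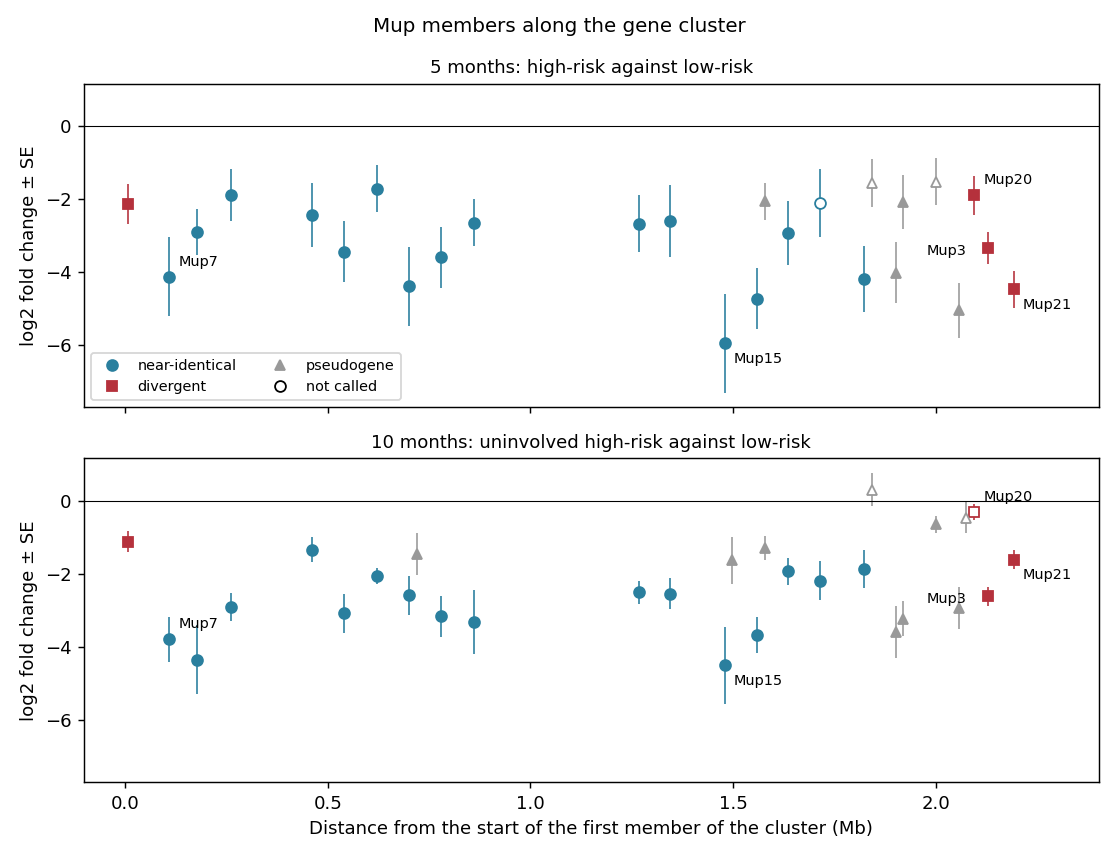
Log2 fold change ± SE (edgeR) of each tested member on chromosome 4 against its distance in Mb from the first member, at 5 months (high-risk against low-risk, upper panel) and 10 months (uninvolved high-risk against low-risk, lower panel). Circles are near-identical coding members, squares divergent coding members and triangles pseudogenes, filled where adjusted p was under 0.05. Estimates lie below 0 along the whole cluster at 5 months, and Mup20 is at -1.90 in the upper and -0.30 in the lower panel.

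At 10 months the uninvolved liver of high-risk mice was also lower in the family, and here the groups did not overlap. The sum in uninvolved livers 1, 3 and 6 combined, 5, 7 and 12 was 5450, 2459, 7607, 7271 and 5001 CPM, all below the lowest low-risk liver (12250 CPM) and the lowest vehicle (16485 CPM). The difference was -1.74 (3.33-fold) from low-risk livers and -1.955 (3.88-fold) from vehicles. Of 30 members, 26 fell against low-risk livers (edgeR), with 24.7% of all genes that fell, and 25 against vehicles, with 26.5%. In 21 and 20 members the groups did not overlap, against 6.74 and 5.38% of all genes. All 16 near-identical members fell in both comparisons, and against low-risk livers none of the 16 overlapped. These 16 may share reads, so they are not 16 independent outcomes. Both comparisons share the uninvolved livers. The uninvolved libraries also differed from the low-risk ones without overlap in total counts (34.8 to 44.6 against 26.4 to 33.5 M). The same held for detected genes (24676 to 28715 against 21663 to 22578) and for the mitochondrial share (4.2 to 5.8 against 2.9 to 3.1%). What part these differences have in the Mup values was not tested.

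Mup3 was at 1386, 546, 2175, 2079 and 924 CPM in the uninvolved livers and at 7685, 7720, 7535, 7562 and 5935 CPM in the low-risk livers, a gap with no overlap. Its log2 fold change was -2.62 (SE 0.26, adjusted p 1.03e-06 by edgeR). Mup7 was at 151, 43.4, 574, 663 and 95.2 CPM against 4271, 3083, 4818, 3582 and 1804 CPM. It fell by 3.80 (SE 0.62, adjusted p 0.000163), again without overlap. Mup21 was at 147, 54.7, 190, 158 and 99.6 CPM against 452, 245, 298, 400 and 266 CPM, with a log2 fold change of -1.62 (SE 0.26, adjusted p 8.94e-05). Mup17 fell by 1.94 (SE 0.36, adjusted p 0.000437) and Mup10 by 2.07 (SE 0.21, adjusted p 1.51e-06).

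Mup20 was not called in either comparison. It was at 2596, 1412, 3030, 2807 and 3064 CPM in uninvolved livers, at 2685, 2526, 3275, 3064 and 1859 CPM in low-risk livers and at 1996, 2621 and 3769 CPM (lowest, median, highest) in vehicles. Only the combined libraries 3 and 6 lay below the other groups. The log2 fold change was -0.30 against low-risk livers (SE 0.22, 95% interval -0.74 to 0.13, edgeR adjusted p 0.261) and -0.42 against vehicles (SE 0.21, adjusted p 0.0995). The latter passed only when libraries 3 and 6 were counted as separate samples (-0.54, adjusted p 0.044). The interval against low-risk livers does not exclude a fall of 0.74 on the log2 scale. The other members not called against low-risk livers were Mup-ps22, Mup-ps21 and Mup-ps16. Mup-ps19 (ENSMUSG00000082644, chromosome 4, 61957149 to 61959911, minus strand), the pseudogene closest to Mup20 in sequence, fell by 0.65 (SE 0.23, adjusted p 0.0258). It was at 307, 154, 328, 241 and 281 CPM in uninvolved and at 395, 311, 444, 345 and 227 CPM in low-risk livers.

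The make-up of the family sum differed between groups. Mup20 held 38.6 to 61.3% of the family's counts in uninvolved livers, 14.2 to 16.6% in low-risk livers and 11.4 to 16.96% in vehicles of 10 months, with no overlap. At 5 months its share was 10.6, 48.9 and 74.2% (lowest, median, highest) in high-risk livers and 4.45, 12.996 and 39.9% in low-risk livers. High-risk liver 1, the one with the highest sum, had the lowest share. Vehicle shares at that age were 11.6 to 14.9% except in vehicles 4 and 6, at 37.7 and 42.1%, which also had the lowest sums of their group. The share is a score over members and was not tested. Across 24 samples of 10 months, which here include the vehicle mouse whose library was labelled a tumor, log2(CPM + 1) of Mup20 had a Pearson r of 0.83 with Mup-ps22 and 0.80 with Mup-ps19. With Mup4 it was 0.37, and 0.13 with Mup3 and 0.12 with Mup7. Over the 34 samples of 5 months Mup20 went with other members too, with an r of 0.67 with Mup3, 0.66 with Mup7 and 0.74 with Mup14, beside 0.88 with Mup-ps19 and 0.84 with Mup-ps22. These are descriptions over libraries that share depth and group, and reads of Mup20 and Mup-ps19 may be partly shared.

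**Figure D3:**
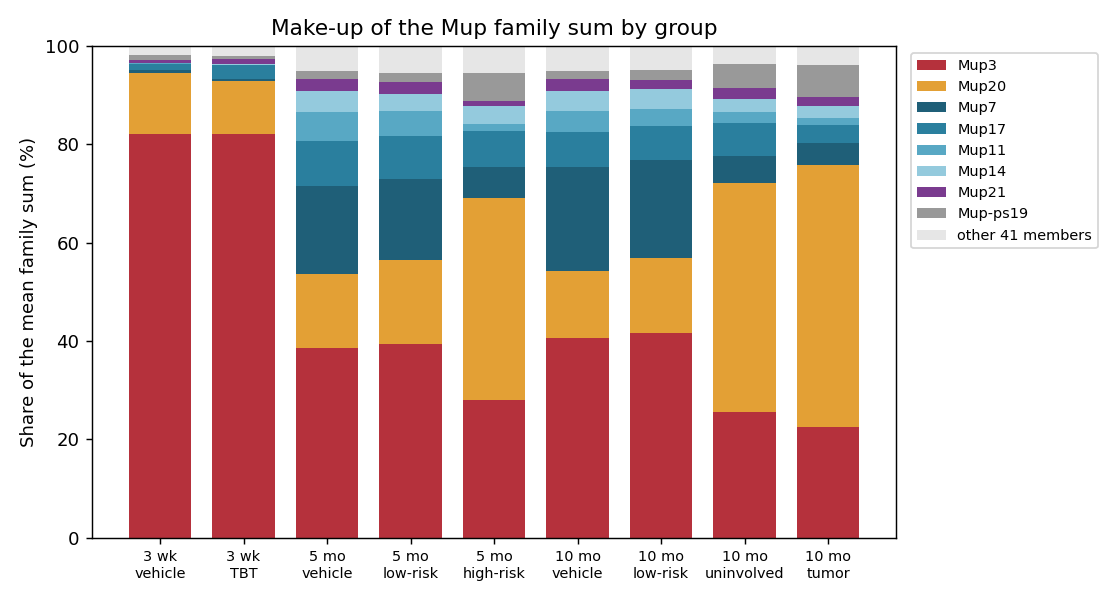
Share of each member in the mean family sum of its group, in percent, for the 8 largest members and the other 41 together, by age and group. Mup3 fills 82.1% of the bar of 3-week vehicles, and Mup20 grows from 13.7% in 10-month vehicles to 46.5% in uninvolved livers and 53.3% in tumors.

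Tumors of 10 months carried about as much Mup RNA as the uninvolved liver. The sum was 3004, 5151 and 8464 CPM in 7 tumors, overlapping the uninvolved livers, and mean log2(CPM + 1) differed by 0.02. Of 27 members 0 were called between tumors and uninvolved livers by edgeR, against 18.1% of all genes in either direction, and 1 had an unadjusted p under 0.05. It was Mup-ps19 (0.43, adjusted p 0.126). The titles give tumors and uninvolved livers the same numbers. Taken as pairs, the log2 ratio of the sum, tumor over uninvolved, was -0.15, 0.78, -0.39, 1.47, 0.22 and 0.04 for numbers 1, 3, 5, 6, 7 and 12, that is 4 above and 2 below 0. Uninvolved libraries 3 and 6, which were summed elsewhere as too close to count as separate samples, gave the largest ratios, and without them 2 pairs were above and 2 below 0. With that number as a block over all 6 pairs, which treats libraries 3 and 6 as distinct, 1 member was called, Mup10 (0.74, SE 0.20, adjusted p 0.0432). Over the 4 pairs without 3 and 6, 2 members were called, Mup9 (-0.94, SE 0.18, adjusted p 0.0213) and Mup17 (-0.85, SE 0.20, adjusted p 0.0313).

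Against vehicles of 10 months the tumors were lower by 1.94 in the sum (3.84-fold), without overlap. Of 28 members 23 fell (edgeR), against 21% of all genes that fell, and in 18 the groups did not overlap, against 1.58% of all genes. Mup3 fell by 3.00 (SE 0.38, adjusted p 4.45e-05), at 326, 1266 and 2510 CPM against 7771, 8092 and 8764 CPM. Mup7 fell by 4.32 (SE 0.69, adjusted p 0.000245), at 36.9, 114 and 910 CPM against 3177, 4432 and 4976 CPM. Mup21 fell by 2.50 (SE 0.20, adjusted p 1.08e-06). Mup20 was at 2128, 2886 and 3509 CPM in tumors, all within the range of the vehicles (1996 to 3769 CPM), with a log2 fold change of -0.23 (SE 0.16, 95% interval -0.54 to 0.09, adjusted p 0.273). The other members not called were Mup-ps16, Mup-ps19, Mup-ps21 and Mup-ps22. In the vehicle library labelled as a tumor the sum was 6981 CPM, with Mup20 at 3679 CPM and a Mup20 share of 52.7%.

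**Figure D4:**
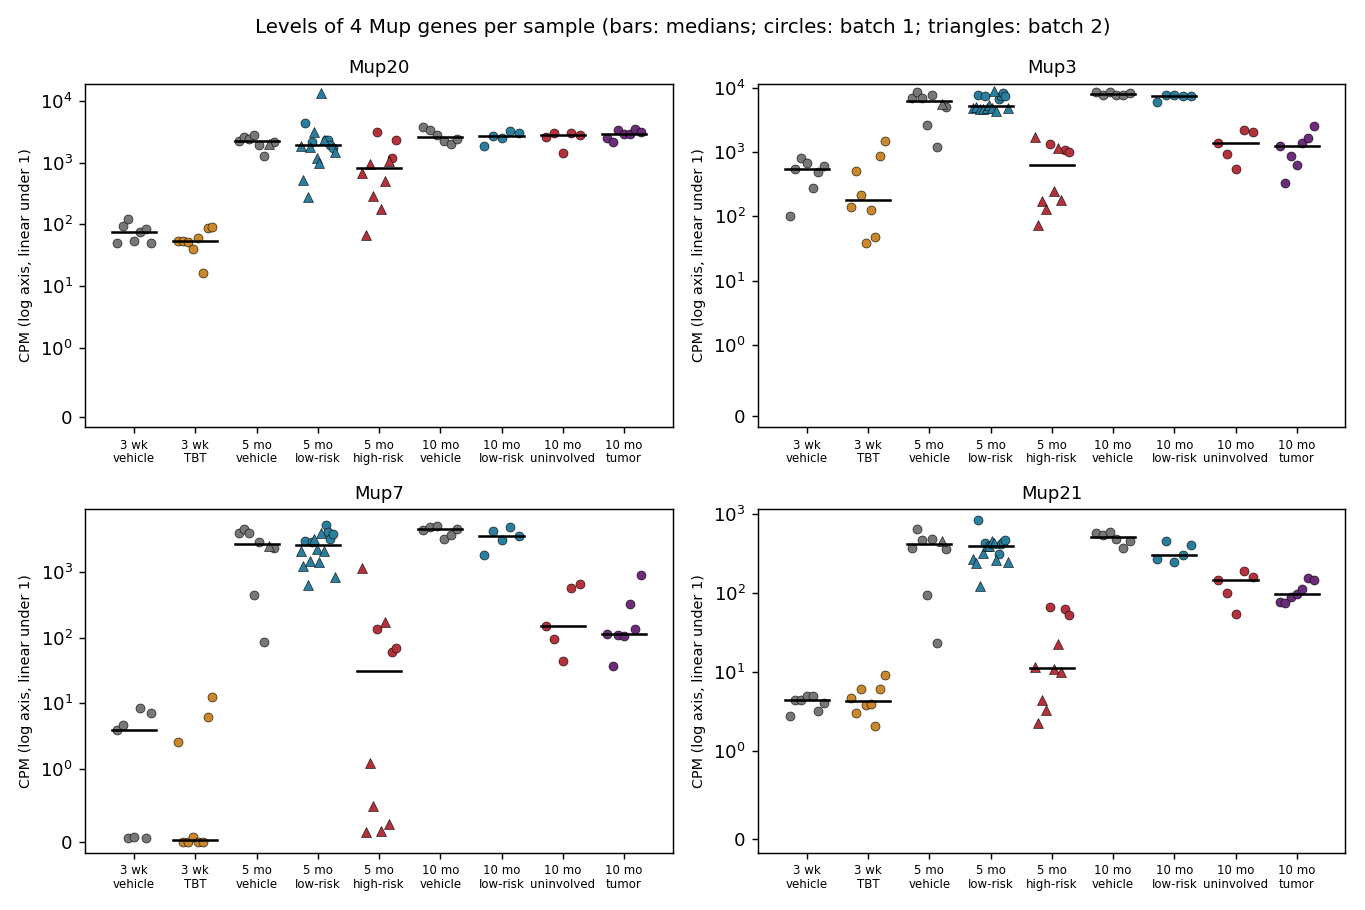
CPM of Mup20, Mup3, Mup7 and Mup21 per sample by age and group, on axes that are logarithmic above 1 CPM and linear below, with bars at the medians, circles for batch 1 and triangles for batch 2. Mup3, Mup7 and Mup21 are lower in high-risk livers of both ages and in tumors, and the medians of Mup20 at 10 months lie between 2621 and 2886 CPM in all 4 groups.

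The risk difference was compared between ages as an interaction, the difference at 10 months (uninvolved against low-risk) minus that at 5 months (high-risk against low-risk). Of 28 members 1 was called by edgeR, Mup21 (2.94, SE 0.60, adjusted p 0.024), with 0.448% of all genes called in either direction. That is, the fall of Mup21 was 4.48 at 5 months and 1.62 at 10 months. The 5-month livers came from both batches and the 10-month livers from batch 1 only, and within batch 1 the interaction of Mup21 was 1.63 and not called (adjusted p 0.233). Mup20 was not called (1.62, SE 0.89, adjusted p 0.479), nor in batch 1 alone (0.14, adjusted p 0.965), and Mup3 was not either (0.74, adjusted p 0.683). A difference in the fall of Mup20 between ages was therefore not shown.

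The pseudogenes added little to the sum in vehicle and low-risk livers. Their summed level had medians of 6.87 CPM in 3-week vehicles and 272, 251 and 133 CPM in vehicle, low-risk and high-risk livers of 5 months. At 10 months the medians were 355, 381, 297 and 372 CPM in vehicle, low-risk, uninvolved and tumor samples, most of it Mup-ps19. The share of Mup-ps19 in the mean family sum was 1.51 to 1.96% in vehicle and low-risk groups of 5 and 10 months. It was 5.61% in 5-month high-risk livers, 4.71% in uninvolved livers and 6.51% in tumors. Of the 49 members 30 were tested in at least 1 comparison, and 19 were never above the filter on low counts. Mup-ps24 had no count in any library. Mup4 and Mup5, the members of gland tissues, had group means of at most 0.286 and 0.465 CPM, with 86 and 183 counts over all libraries. Mup6, a divergent member at up to 14.98 CPM, fell by 2.14 at 5 months (adjusted p 0.00236) and by 1.12 in uninvolved livers (adjusted p 0.00373), both against low-risk livers (edgeR). Mup-ps6 and Mup-ps16 overlap predicted genes on the same strand, so their counts cannot be assigned to one of them.

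Genes outside the family that are known to be male-biased in liver were counted beside it. Of 20 listed, 16 fell and 0 rose in 5-month high-risk against low-risk livers, against 18.3% of all genes that fell, with a median of -1.496 over those tested. In uninvolved against low-risk livers 13 fell and 1, Cyp4a12b, rose (0.56, adjusted p 0.00738), where 24.7% of all genes fell. In tumors against vehicles 14 fell and 0 rose, where 21% of all genes fell. Against vehicles 11 fell in 5-month high-risk livers (7.2% of all genes fell) and 13 in uninvolved livers (26.5%), and 0 rose in either. Hsd3b5, a male-specific steroid dehydrogenase, fell by 5.53 at 5 months (SE 0.87, adjusted p 1.04e-05) and by 4.71 at 10 months (SE 0.47, adjusted p 2.17e-06). Between 3-week and 5-month vehicles 17 of the 20 rose and 0 fell, where 12.5% of all genes rose. Of 21 genes known to be female-biased, 8 of 15 tested rose and 0 fell at 5 months, and 6 of 11 rose and 0 fell in uninvolved livers, both against low-risk livers, where 20.5 and 27.7% of all genes rose. Cyp2a4, a female-biased cytochrome P450, rose by 3.97 (SE 0.79, adjusted p 0.000184) and 4.02 (SE 0.69, adjusted p 0.000262). Against vehicles fewer female-biased genes were called: 1 of 15 rose and 0 fell in 5-month high-risk livers. In uninvolved livers 4 of 11 rose and 1 fell against vehicles, and in tumors 5 of 14 rose and 1 fell.

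Over the 34 samples of 5 months, the genes outside the family whose log2(CPM + 1) was most like that of the family sum were Cyp7b1 (Pearson r 0.95), Slco1a1 (0.93), Adh6-ps1 (0.90), Serpina12 (0.90) and Cyp2d9 (0.89), among 9735 candidates. Over the 24 samples of 10 months their r was 0.85, 0.97, 0.87, 0.57 and 0.83. Cyp7b1, an oxysterol hydroxylase, Slco1a1, an organic anion transporter, and Cyp2d9, a steroid hydroxylase, were themselves on the male-biased list. That list was chosen with earlier results of these data known. The samples share groups and batches, so these values are descriptions.

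Genes of growth hormone signalling were counted likewise. Of 16 listed, 15 were tested at 5 months, where 5 fell and 1 rose in high-risk against low-risk livers (edgeR), beside 18.3% of all genes that fell and 20.5% that rose. Ghr, the growth hormone receptor, fell by 1.09 (SE 0.14, adjusted p 2.23e-07) and Stat5b by 0.45 (SE 0.12, adjusted p 0.0025), along with Igfals, Prlr and Egfr, while Igfbp3 rose by 0.99 (SE 0.17, adjusted p 1.63e-05). Igf1, the main secreted target of the hormone, was at -0.03 (adjusted p 0.887). In uninvolved against low-risk livers 4 of 16 fell, near the 24.7% of all genes, and 2 rose, with Ghr at -0.85 (SE 0.13, adjusted p 5e-05) and Stat5b at -0.38 (SE 0.13, adjusted p 0.0188). The list's median was -0.45 at 5 months.

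Among 20 transcription factors known to act on Mup or sex-biased liver genes, 8 fell and 0 rose at 5 months against low-risk livers (edgeR), where 18.3% of all genes fell. In uninvolved against low-risk livers 5 fell and 4 rose, shares near those of all genes (24.7% fell and 27.7% rose). Cebpa, a liver-enriched activator, fell by 0.95 (SE 0.18, adjusted p 9.16e-05) and 0.98 (SE 0.11, adjusted p 2.73e-06). Cux2, a female-biased repressor of male genes, rose in uninvolved livers (1.31, SE 0.52, adjusted p 0.0432) and was not called at 5 months (1.07, adjusted p 0.122). Onecut1, whose core motif is the one printed above, was not called at either age (-0.59, adjusted p 0.387, and -1.44, adjusted p 0.103).

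Of 13 other lipocalin genes, 9 were tested at 5 months, where 4 fell (C8g, Apom, Rbp4 and Ambp) and 0 rose against low-risk livers, beside 18.3% of all genes that fell. In uninvolved livers 2 of 10 rose and 3 fell against low-risk livers, near the 27.7 and 24.7% of all genes. Lcn2, the acute-phase lipocalin that binds bacterial siderophores, rose by 2.64 (SE 1.05, adjusted p 0.0476) and Ptgds, a prostaglandin synthase, by 3.09 (SE 0.86, adjusted p 0.00789).

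Markers of hepatocytes, the cells that make these proteins, were present in all groups, and no marker of the list was at 0, but single markers fell. Of 11 markers 6 fell and 1 rose in high-risk against low-risk livers of 5 months (median -0.50, edgeR), against 18.3% of all genes that fell. In uninvolved against low-risk livers 6 fell and 1 rose (median -0.34, 24.7% of all genes fell), and in tumors against vehicles 7 fell (median -0.45, 21% of all genes fell). The summed level of the 11 was 98688 to 187436 CPM for low-risk and 109543 to 203487 CPM for high-risk livers of 5 months. At 10 months it was 137082 to 141777 CPM in low-risk, 115660 to 138810 CPM in uninvolved and 109344 to 155019 CPM in tumor samples. The sums overlapped, but the uninvolved median of 134663 CPM lay below every low-risk liver. As a percentage of these marker counts, the family sum had medians of 10.2 and 1.18% in low-risk and high-risk livers of 5 months, and of 13.4, 4.71 and 4.12% in low-risk, uninvolved and tumor samples of 10 months. Other cell types' markers moved with the groups. The cholangiocyte sum was 25.9 to 265 CPM in low-risk and 33.2 to 450 CPM in high-risk livers of 5 months, and 36.3 to 54.1 against 119 to 267 CPM in low-risk and uninvolved livers of 10 months. The sum of stellate and fibroblast markers was 338 to 641 against 645 to 1918 CPM, and 386 to 532 against 721 to 1043 CPM. Their part in the Mup result was not tested. In bulk tissue, fewer hepatocytes and less Mup RNA per hepatocyte cannot be told apart.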

How the data were processed

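The authors deposited 1 table of whole-number counts per gene for 75 libraries. Per the labels, RNA was purified on RNeasy columns with DNase and made into Illumina TruSeq stranded total RNA libraries. The submitters' processing notes name Trim Galore, HISAT2, featureCounts and the build mm10. The name of the deposited file gives ComBat-seq, a batch adjustment of counts. Its settings, the strand setting and the handling of reads that match several genes are not given in the sources used here. The batch adjustment can alter differences between batches, and dropped shared reads would lower near-identical members.

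Positions came from the GRCm38 annotation by gene identifier. Tests used edgeR 4.0.16 in R 4.3.3 on the deposited counts of all genes (TMM, filterByExpr, robust quasi-likelihood F test, Benjamini-Hochberg, threshold 0.05), checked on simulated counts. Each age had its own fit, at 5 months with sequencing batch in the model. Tumors were set against uninvolved livers or vehicles alone, and ages were compared in batch 1 vehicles. Standard errors were derived from the F statistic, and 95% intervals are normal ones. The family sum, as log2(CPM + 1), was not tested. Described singly were 18 members, those with a group mean of at least 50 CPM and 6 named for a known role or earlier results. Members, lists and tests were chosen with earlier results of these data known. Alternatives included DESeq2 1.42.0, RLE factors, no low-count filter, single batches, left-out samples and the title number as a block. Same-numbered tumor and uninvolved samples had correlations of deviations from -0.33 to 0.71 (median 0.11), 3 of 6 over 0.1, and the labels do not say that the number is a mouse.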

Additional observations from a re-analysis of the deposited data

Results flagged for a closer look

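Of 98 combinations of a singly described member and a group of 4 to 10 samples, 9 had an extreme sample set off from the rest by a gap beyond the 95% critical value of Dixon's test, which chance alone exceeds in about 1 in 20 groups. Vehicle 6 of 5 months, the liver with the lowest family sum of its group, was the lowest for 5 of these: Mup6 at 1.08 CPM (others 5.16 to 14.98), Mup10 at 48.9 CPM (119 to 195), Mup13 at 40.4 CPM (144 to 392), Mup14 at 54.5 CPM (362 to 1061) and Mup-ps19 at 116 CPM (196 to 281). The count of members lower in high-risk livers than in vehicles was 15 with it and 17 without it. Tumor 7 had Mup15 at 30.2 CPM, against 0.039 to 2.12 CPM in the other tumors. Vehicle 7 of 3 weeks had 0 CPM of Mup-ps19, against 4.02 to 11.2 CPM. The combined uninvolved libraries 3 and 6 had Mup20 at 1412 CPM, against 2596 to 3064 CPM, and low-risk liver 10 of 10 months had Mup3 at 5935 CPM, against 7535 to 7720 CPM.

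The fall of Mup21 with risk differed between ages by 2.94 on the log2 scale in the interaction test (edgeR adjusted p 0.024), and by 1.63 within batch 1 (adjusted p 0.233). The vehicle library labelled as a tumor, used in no comparison, had Mup-ps19 at 764 CPM, above the 245 to 467 CPM of the 6 other vehicles of 10 months. It is 1 of the technically deviating libraries.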

How the results depend on the processing

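Counts of called members moved by over 1.5 times in these cases. High-risk against low-risk livers of 5 months gave 10 in batch 2 alone. High-risk livers against vehicles of 5 months gave 0 in batch 1 alone, 8 in a fit of those groups alone and 24 without high-risk liver 1. The only other sample left out singly in that comparison was vehicle 6, where the count stayed within 1.5 times (17). Vehicles of 10 against 5 months gave 1 without the technically deviating libraries, and the interaction between ages gave 0 without the filter on low counts (Mup21 2.91, adjusted p 0.0992) and 0 in batch 1 alone. With the replicate block, tumors against uninvolved livers gave 1 over 6 pairs and 2 over 4 pairs, vehicles of 10 against 5 months gave 1, and Mup20 in tumors against vehicles turned to 0.0044 (adjusted p 0.99). Without 1 replicate each, counts ran from 23 to 25 for uninvolved against low-risk livers, from 23 to 25 against vehicles and from 23 to 24 for tumors against vehicles. The family sums ran from -1.88 to -1.47, from -2.09 to -1.69 and from -2.06 to -1.81. Apart from these, 271 comparisons of counts and sums and 487 of single members kept direction and side of the threshold. Each single-member result is of a member in a comparison under an alternative setting, and 12 such results were no longer called. The cause was not tested. The batch 1 interaction and the left-out 5-month samples were chosen after seeing the data. The low depth of 5-month libraries, from 2.83 M counts, limits members of a few CPM.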

Other observations

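The vehicle library labelled as a tumor had 1496 CPM of Mup3, 98.8 CPM of Mup7 and 117 CPM of Mup21. In the 6 other vehicles of 10 months the lowest values were 7771, 3177 and 366 CPM. Its Mup20 level of 3679 CPM lay inside their range. Among the 5-month vehicles, livers 4 and 6 had family sums of 7395 and 2980 CPM, and the other 6 had 14151 to 21827 CPM.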
